A study of Mus musculus with 8 samples.

Results

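Class I MHC molecules are made of a heavy chain, the light chain β2-microglobulin and, in most cases, a bound peptide. The classical heavy chains present peptides to CD8 T cells on nearly all nucleated cells, whereas the nonclassical heavy chains vary little between individuals and are ligands of more specialised receptors. Several of them are known to be raised by interferons together with the classical genes. The nonclassical genes described here were the 7 rows whose gene symbol was H2-Q4, H2-Q6, H2-Q7, H2-T22, H2-T23, H2-T24 or H2-M3, among 22520 coding genes in the table.

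Expression was measured by mRNA-seq in 4 libraries of liver cells from LRP1 eKO mice (LRP1 f/f; Cdh5-CreER+/-) and 4 from littermate WT mice (LRP1 f/f; Cdh5-CreER-/-), labelled as strain C57BL/6 at postnatal day 14. The labels name the cells liver microvesicular cells, and the study isolated them as ECs with beads that carry an antibody to PECAM-1. The Cdh5 promoter drives the tamoxifen-dependent Cre in ECs. Both groups carried the floxed alleles and WT mice carried no CreER, so that an effect of CreER and one of Lrp1 loss cannot be told apart. Values are quantile-normalized signal, whose unit before that step is not stated in the sources used here, so that the depth is unknown and levels were not compared between genes.

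Lrp1, the deleted gene, measured 65.5 ± 13.3 in WT but 4.41 ± 1.65 in LRP1 eKO libraries (mean ± SD, n = 4 each, here and below), a log2 fold change of -3.66. The EC markers Pecam1 (1.53 to 2.50 in WT, 1.84 to 3.85 in LRP1 eKO) and Cdh5 (1.26 to 2.27 in WT, 2.21 to 4.99 in LRP1 eKO) were detected in every library, and so were the fibroblast and stellate cell collagen Col1a1 (326 to 423 in WT, 392.4 to 500.0 in LRP1 eKO; the list of 8 such markers had a mean log2(signal + 1) of 5.27 to 5.33 in WT and 5.14 to 5.24 in LRP1 eKO libraries) and the hepatocyte gene Alb (15.7 to 24.7 in WT, 5.70 to 6.83 in LRP1 eKO). In such bulk samples fewer cells of a type and less RNA per cell cannot be told apart. WT replicate 4 lay farthest from the WT median for 61.7% of genes and LRP1 eKO replicate 2 farthest from the LRP1 eKO median for 37.2%.

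The 7 genes lie on chromosome 17 of GRCm38. H2-Q4 (35379617 to 35385290), H2-Q6 (35424850 to 35430055) and H2-Q7 (35439155 to 35443773) are on the plus strand beyond H2-D1. H2-T24 (36005695 to 36020560), H2-T23 (36029773 to 36032855) and H2-T22 (36037128 to 36042747) are on the minus strand, and H2-M3 (37270220 to 37274484) is on the plus strand. Positions are those of the protein-coding genes in GENCODE M21, matched by gene identifier, and the table gives 1 value per gene, not per exon or UTR.

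Promoter windows from RefSeq (GRCm38.p6), from 250 bases before to 50 bases after the start, were present for 6 of the 7 genes, all but H2-T24. The 9 letters GTTTCACTT, found in the interferon consensus sequence of class I genes, were in the windows of H2-Q4, H2-Q6, H2-Q7, H2-T22 and H2-M3 and of the classical H2-K1 and H2-D1, not in that of B2m, and in 0.399% of all 32851 windows. These letters were searched after the windows had been seen, on both strands. The H2-T23 window lacked them and held, on the reverse strand, a match to the interferon-stimulated response core GAAANNGAA, which 8.56% of all windows hold. The RefSeq start of H2-T23 and this match lie inside its GENCODE span, whose start is at 36032855. The bases before that GENCODE start were therefore only partly searched. The GTTTCACTT match of H2-D1 also lies inside its GENCODE span, which starts at 35262730. In H2-T22 a match to the GAAANNGAA core overlaps GTTTCACTT. The stretches of 100 bases below show these matches in capitals, written 5′ to 3′ on the strand of the gene, since they are the feature that most members share with H2-K1 and H2-D1.
H2-Q4 (chr17:35379418-35379517, plus strand): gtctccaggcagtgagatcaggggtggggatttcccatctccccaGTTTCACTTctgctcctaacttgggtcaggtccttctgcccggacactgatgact
H2-Q6 (chr17:35424652-35424751, plus strand): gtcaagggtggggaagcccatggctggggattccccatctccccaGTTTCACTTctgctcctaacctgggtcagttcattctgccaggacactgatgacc
H2-Q7 (chr17:35438996-35439095, plus strand): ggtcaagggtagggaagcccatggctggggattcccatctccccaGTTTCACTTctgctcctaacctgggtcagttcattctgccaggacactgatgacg
H2-T22 (chr17:36042880-36042979, minus strand): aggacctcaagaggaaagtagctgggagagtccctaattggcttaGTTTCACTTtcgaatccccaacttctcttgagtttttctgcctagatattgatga
H2-T23 (chr17:36032770-36032869, minus strand): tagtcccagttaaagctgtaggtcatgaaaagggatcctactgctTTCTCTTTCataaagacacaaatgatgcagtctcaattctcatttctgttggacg
H2-M3 (chr17:37270087-37270186, plus strand): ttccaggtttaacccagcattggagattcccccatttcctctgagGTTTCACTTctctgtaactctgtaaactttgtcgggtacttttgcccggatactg
H2-D1 (chr17:35262898-35262997, plus strand): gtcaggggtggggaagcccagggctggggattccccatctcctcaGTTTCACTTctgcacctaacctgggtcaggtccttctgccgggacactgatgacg

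A match is a description of the letters and not of factor binding. The class I X2 letters TGATGAC, also searched after the windows had been seen, was in the windows of H2-Q4, H2-Q6, H2-Q7, H2-T22, H2-M3 and H2-D1, not in those of H2-T23, H2-K1 and B2m, and in 3.23% of all windows. Matches to the NF-κB core GGANNNNCC, held by 48.4% of all windows, were in every member window but that of H2-T23, and the GAS letters TTCNNNGAA, held by 8.30%, were in that of H2-M3 alone. The absences in H2-T23 hold for its RefSeq window only, since the bases before its GENCODE start were only partly searched.

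All 7 nonclassical genes had a higher mean signal in LRP1 eKO than in WT libraries, and the log2 fold changes ran from 0.22 to 0.58 with a median of 0.44. The median over all genes tested was -0.0095. These changes were computed on log2(signal + 1), a scale that understates the change of low genes. At an adjusted p below 0.05 from limma, 6 of the 7 genes rose, of which 3 were among the 4 that passed the filter (4 or more libraries with a signal of 1 or above) and 3 were below it. For comparison, 19.0% of the 11391 genes that passed the filter were higher by this rule, and so were 12.0% of the 17959 genes fitted without it. None of the 7 also reached 2-fold on this scale (0 higher, 0 lower), where 0.869% of the tested genes did so upward, although all 7 had an unadjusted p below 0.05. In 4 of the 7 genes every LRP1 eKO library was above every WT library, which held for 14.6% of all genes fitted without the filter.

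**Figure D1:**
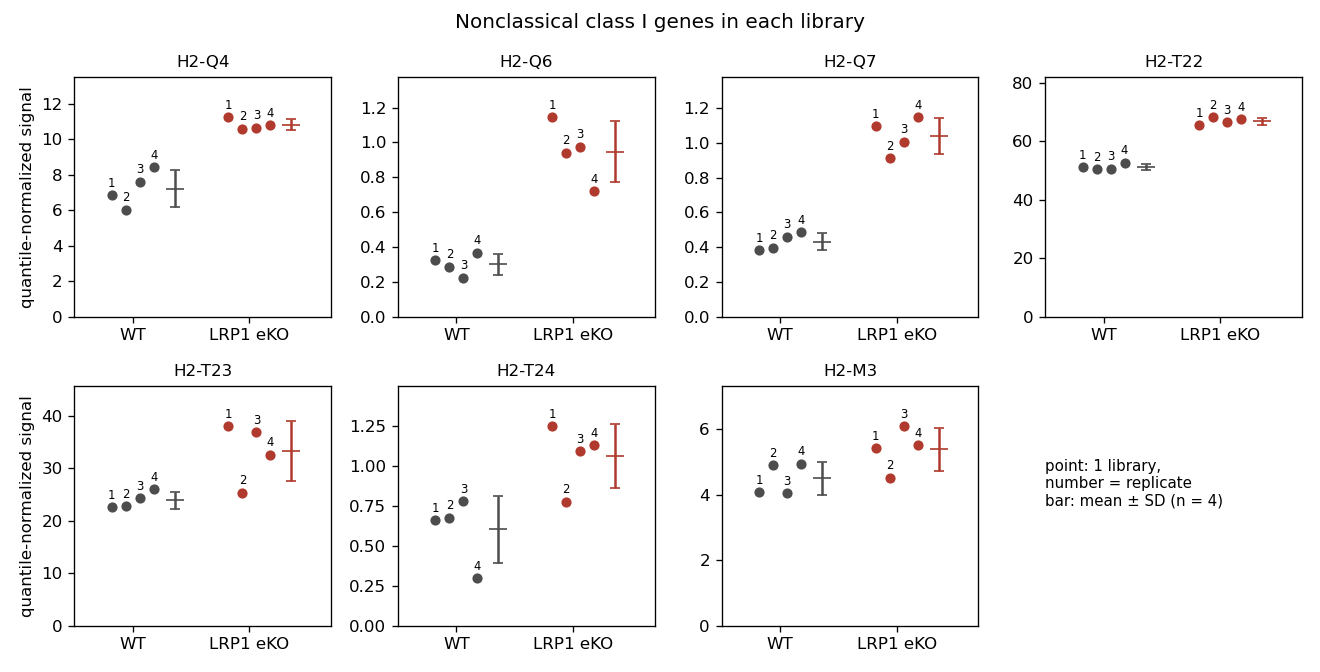
Quantile-normalized signal of the 7 nonclassical class I genes (vertical axes, each from 0) in the 4 WT and 4 LRP1 eKO libraries, with points numbered by replicate and bars for the mean ± SD. The groups are apart for H2-Q4, H2-Q6, H2-Q7 and H2-T22, and LRP1 eKO replicate 2 falls among or beside the WT libraries for H2-T23, H2-T24 and H2-M3.

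On the log2(signal + 1) scale the H2-Q genes had the 3 largest log2 fold changes of the 7, although no pair of members differed by test. The order depends on this scale, since in mean signal H2-T24 rose 1.76-fold, more than H2-Q4. H2-Q4 encodes a nonclassical heavy chain known as Qb-1. Its signal was 6.84, 6.03, 7.60 and 8.42 in WT replicates 1 to 4 and 11.26, 10.59, 10.66 and 10.81 in LRP1 eKO replicates 1 to 4. The lowest LRP1 eKO library was above the highest WT library, and the LRP1 eKO libraries varied less (SD 0.298) than the WT libraries (SD 1.02). H2-Q4 rose 1.499-fold in mean signal, with a log2 fold change of 0.53 ± 0.084 (SE) and a limma adjusted p of 0.00098. An antisense gene, Gm11131, overlaps H2-Q4 over 676 bases, and whether counting used the strand is not stated in the sources used here, so that reads of the pair may not be separable. Of the 50-base windows in transcripts of H2-Q4, 39.2% also occurred in another gene and 16.5% in another H2 gene.

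H2-Q6 and H2-Q7 encode Qa-2, a heavy chain that can be held in the membrane by a lipid anchor or be secreted. H2-Q6 had signals of 0.324, 0.286, 0.224 and 0.367 in WT and 1.15, 0.942, 0.977 and 0.719 in LRP1 eKO libraries. H2-Q7 had signals of 0.383, 0.397, 0.460 and 0.485 in WT and 1.10, 0.912, 1.01 and 1.15 in LRP1 eKO libraries. Both were low in every library, and neither overlapped between groups. In mean signal H2-Q6 was 3.15-fold and H2-Q7 2.41-fold higher in LRP1 eKO libraries, whereas the log2 fold changes of signal + 1 were 0.58 ± 0.068 and 0.51 ± 0.045, with limma adjusted p of 0.00079 and 0.00020. With a pseudocount of 0.1 in place of 1, the log2 fold changes were 1.38 and 1.10 and both genes passed the 2-fold threshold.

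The signals of H2-Q6 and H2-Q7 are uncertain as values of single genes. Of the 50-base windows in transcripts of H2-Q6, 27.0% also occurred in another H2 gene, and 13.9% in H2-Q7. For H2-Q7 31.9% of windows were shared with another H2 gene, the most with H2-Q5 (17.4%) and then H2-Q6. The sum of both genes rose by 0.79 on the log2 scale (adjusted p = 2.36e-05, limma), although it adds normalized signals and not reads, and H2-Q5, H2-Q4 and H2-D1 share windows with H2-Q6 or H2-Q7 as well.

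H2-T22 is a ligand of some γδ T cells and can fold with β2-microglobulin without a peptide. Its signal was 51.1, 50.4, 50.6 and 52.6 in WT and 65.5, 68.3, 66.4 and 67.5 in LRP1 eKO libraries. The replicates of each group lay close together and the groups were far apart, relative to that spread. H2-T22 rose 1.31-fold, with a log2 difference of 0.38 ± 0.037 and the smallest adjusted p of the 7 (5.22e-05, limma). The closely related H2-T10, which was not analysed here, shares 37.5% of the 50-base windows of H2-T22, so that its reads may be part of this signal.

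H2-T23 encodes Qa-1, which presents leader peptides of other class I heavy chains to the receptor CD94/NKG2A of natural killer and T cells. Its signal was 22.5, 22.8, 24.3 and 26.1 in WT and 38.1, 25.4, 36.9 and 32.6 in LRP1 eKO libraries. LRP1 eKO replicate 2 lay within the WT range, and the other LRP1 eKO libraries were above it. H2-T23 rose 1.39-fold, or by 0.44 ± 0.11 on the log2 scale (adjusted p = 0.012, limma), and had a two-sided exact permutation p of 0.057. Without LRP1 eKO replicate 2 the log2 fold change was 0.56.

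H2-T24 had signals of 0.660, 0.675, 0.779 and 0.298 in WT and 1.25, 0.776, 1.09 and 1.13 in LRP1 eKO libraries. WT replicate 3 and LRP1 eKO replicate 2 were nearly equal, and WT replicate 4 was the lowest. The log2 fold change was 0.37 ± 0.11 with a limma adjusted p of 0.043. The limma adjusted p of H2-T24 was no longer below 0.05 without any one of WT replicates 1 and 2 and LRP1 eKO replicates 1, 3 and 4, and ran up to 0.099. The antisense gene A930015D03Rik overlaps H2-T24 over 14866 bases and H2-T23 over 3083 bases, the whole span of each, and H2-T22 over 1308 bases. As for H2-Q4, reads of these genes and of the antisense gene may not be separable.

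H2-M3 presents peptides that begin with N-formylmethionine, as bacterial and mitochondrial proteins do. Its signal was 4.08, 4.90, 4.06 and 4.95 in WT and 5.42, 4.52, 6.10 and 5.51 in LRP1 eKO libraries. LRP1 eKO replicate 2 was below the 2 highest WT libraries, and the other LRP1 eKO libraries were above all WT libraries. The log2 fold change of 0.22 ± 0.091 did not pass the test (limma adjusted p = 0.082), and it was 0.28 with an adjusted p of 0.026 without LRP1 eKO replicate 2. H2-M3 shares only 0.576% of its 50-base windows with another H2 gene.

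The classical heavy chains and their light chain had larger log2 fold changes on this scale than any member. The mean signal of H2-K1 was 84.0 ± 6.91 in WT against 139 ± 4.60 in LRP1 eKO mice (log2 fold change 0.72), H2-D1 68.4 ± 2.52 and 142 ± 10.9 (1.05), and B2m, the light chain, 443 ± 3.29 and 806 ± 32.9 (0.86). All 3 rose at a limma adjusted p below 0.05, without overlap between groups, and H2-D1 alone passed the 2-fold threshold.

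Each member was set against the classical heavy chains within each library, as its log2(signal + 1) minus the mean of H2-K1 and H2-D1. This difference was lower in LRP1 eKO than in WT libraries for all 7 members, by 0.31 for H2-Q6 up to 0.67 for H2-M3, with a two-sided exact permutation p of 0.029 each, the smallest that 4 against 4 libraries allow. Adjustment over the 7 comparisons left this value unchanged. With a pseudocount of 0.1, H2-Q6 and H2-Q7 turned to a larger change than the classical genes (0.49 and 0.21) and H2-T24 did not pass (-0.12), so that a smaller change than the classical genes held under both pseudocounts for H2-Q4, H2-T22, H2-T23 and H2-M3. The members were also compared in 21 pairs, of which 0 differed in change at an adjusted p below 0.05 by the exact permutation test and 1, H2-Q6 against H2-M3, at an unadjusted p below 0.05.

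**Figure D2:**
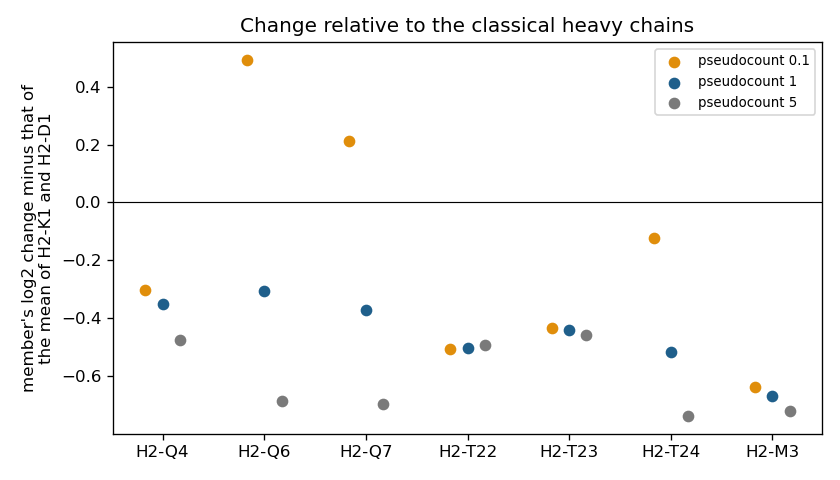
Change of each member (log2 signal plus pseudocount, LRP1 eKO minus WT) minus the change of the mean of H2-K1 and H2-D1, on the vertical axis, for 3 pseudocounts. H2-Q6 and H2-Q7 lie below 0 with pseudocounts of 1 and 5 and above it with 0.1, whereas H2-Q4, H2-T22, H2-T23 and H2-M3 lie below 0 with all 3.

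Of 13 genes of peptide supply and loading, all of which passed the filter, 8 rose and 0 fell at an adjusted p below 0.05, and the median log2 fold change was 0.27. Tapbp (tapasin, which bridges heavy chains to the transporter) rose by 0.58, Erap1 (a peptidase that trims peptides) by 0.41 and Calr (calreticulin, a chaperone of the loading complex) by 0.27, with limma adjusted p below 0.05. Of the 16 regulators tested, 4 rose and 3 fell, with a median log2 fold change of -0.039. Among those that rose were Irf7 (2.55), Stat2 (1.25) and Irf9 (0.99), which act in interferon signalling, and Irf1 (-0.25), another interferon regulatory factor, and the subunits Rfxap (-0.25) and Rfxank (-0.24) of the RFX complex, which binds MHC promoters, fell. Nlrc5, the class I transactivator, was not analysed here.

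**Figure D3:**
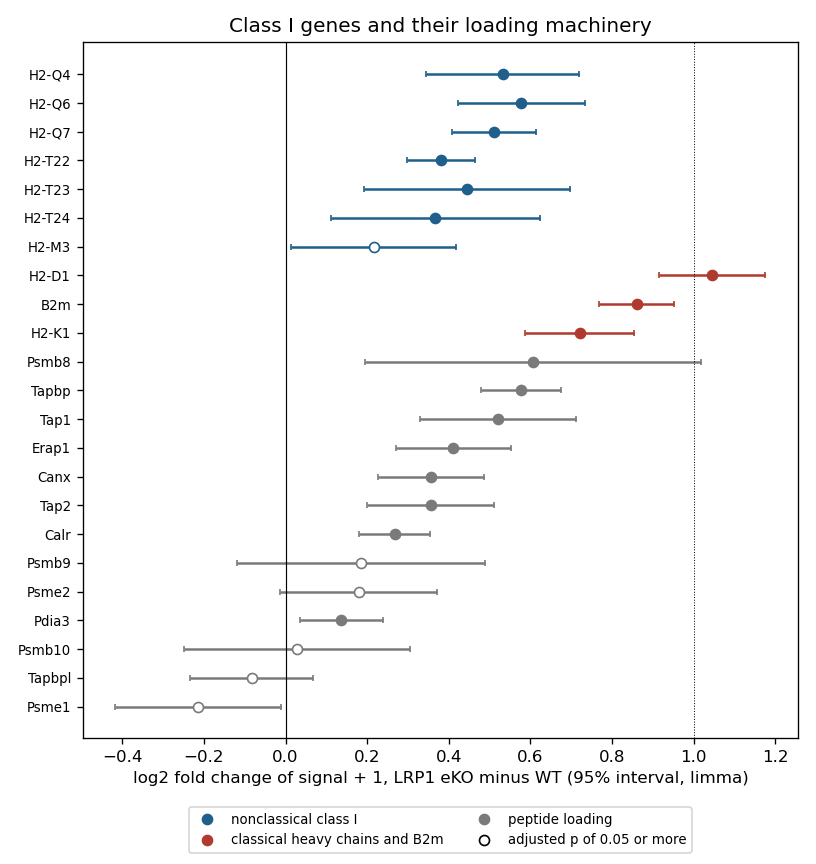
Log2 fold change of signal + 1 (LRP1 eKO minus WT, horizontal axis) with its 95% confidence interval from limma for the 7 nonclassical genes, the classical genes with B2m, and 13 genes of peptide loading. Filled points have an adjusted p below 0.05. The members lie between 0.22 and 0.58, below H2-K1 (0.72), B2m (0.86) and H2-D1 (1.05).

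Of 15 other nonclassical genes of the region with a row in the table, 0 passed the filter and 6 were listed at 0 in every library. Without the filter, H2-Q1 rose (0.530 ± 0.0516 in WT, 0.966 ± 0.0870 in LRP1 eKO, adjusted p = 0.00081) and H2-Q10 fell (0.257 ± 0.0443 and 0.114 ± 0.0466, adjusted p = 0.0094, limma). Of 5 class I-like genes outside the MHC that passed the filter, 0 were higher and 2 were lower, namely Cd1d1, which presents lipids (log2 fold change -0.46), and Fcgrt, the neonatal Fc receptor (-0.34). Below the filter Azgp1 also fell (-0.74, limma adjusted p = 0.0036).

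Class II genes are coded in the same region. Of 3 that passed the filter 0 rose and 1, H2-DMb1, fell (log2 fold change -0.28). Between H2-K1 and H2-M3 lie 142 coding genes whose symbols are not those of H2 class I heavy chains, of which 75 were tested. Among these, 11 rose and 19 fell, 14.7% rising against 19.0% of all tested genes, and the median log2 fold change was -0.046. The share of all tested genes that fell is not given here. The counts of falling genes in this and the other lists therefore have no reference. The 11 that rose include Psmb8 (0.61), Tap1 (0.52) and Tap2 (0.36), which were counted above among the genes of peptide supply and loading. The 142 include the class I genes Gm11127, Gm7030 and Gm8909, and without them 11 of 74 rose, 19 fell and the median was -0.051. Without the filter Gm7030 (0.33) and Gm8909 (0.29) rose, while Gm11127, which passed the filter, did not pass the test (0.088, adjusted p = 0.35, limma). None of the 75 passed the 2-fold threshold. Without WT replicate 3, 7 of them rose.

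**Figure D4:**
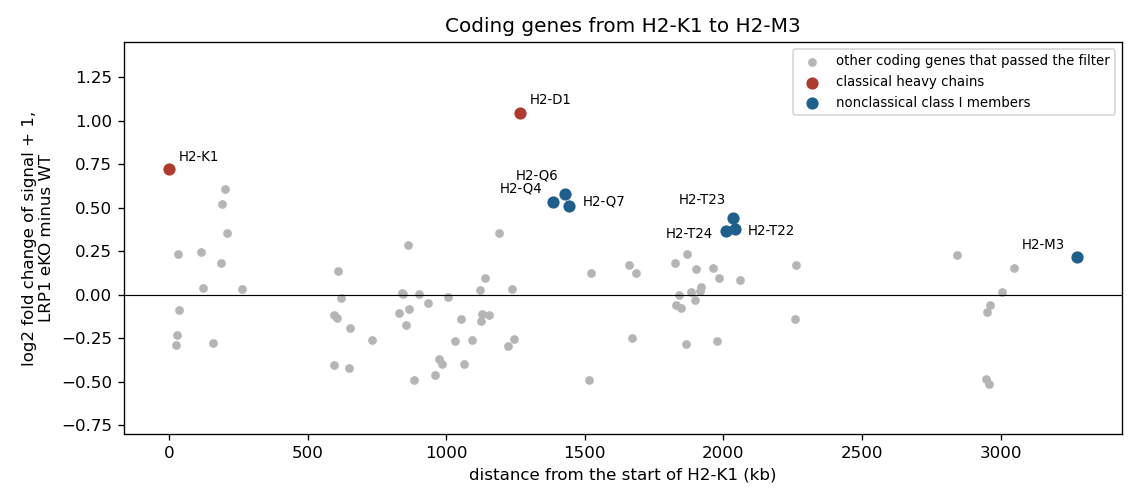
Log2 fold change of signal + 1 (LRP1 eKO minus WT, vertical axis) of coding genes by distance from the start of H2-K1 in kb (horizontal axis). The members, in blue, lie above 0 while the other genes that passed the filter, in grey (Gm11127 among them), lie on both sides of it with a median of -0.046.

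Among the LRP1 eKO libraries, replicate 2 had the lowest macrophage marker mean and the lowest signal of several members, and of H2-K1 and H2-D1. The WT libraries differed in this. There replicate 4 had the lowest marker mean and the lowest H2-T24 (0.298), but the highest H2-T23 (26.1) and H2-M3 (4.95). The mean log2(signal + 1) of 13 macrophage and Kupffer cell markers was 1.86 to 2.44 in WT libraries, 3.37 to 4.11 in LRP1 eKO replicates 1, 3 and 4, and 1.24 in LRP1 eKO replicate 2, the library in which H2-T23, H2-T24 and H2-M3 were lowest of the LRP1 eKO group, as were H2-Q4 and H2-Q7. Of the 9 markers that passed the filter 1 rose, and 1 of the 4 below it. With this mean as a covariate, the log2 fold change was 0.28 for H2-T23 (limma adjusted p = 0.019), 0.25 for H2-T24 (0.12) and 0.13 for H2-M3 (0.28). It was 0.53 for H2-Q4, 0.40 for H2-T22, 0.57 for H2-Q6 and 0.48 for H2-Q7, all with an adjusted p below 0.05. Over the LRP1 eKO libraries, the endothelial marker means given below had the same order as the macrophage mean. This fit therefore cannot assign a change to a cell type, and the part of macrophages in the members' values was not tested. In LRP1 eKO replicate 2, H2-Q4, H2-T22, H2-Q6 and H2-Q7 were above every WT library. Of the 13 macrophage markers in that library, 11 were below every WT library, Clec4f was above and Timd4 was within the WT range. Clec4f, a defining Kupffer cell marker, was listed at 0 in all WT libraries and at 0.826, 0.124, 0.537 and 0.427 in LRP1 eKO libraries (limma adjusted p = 0.016, without the filter). Timd4, another, was listed at 0 in all libraries but LRP1 eKO replicate 3.

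Endothelial markers also moved. The mean of 8 liver sinusoidal EC markers was 0.867 to 1.13 in WT libraries, 1.61 to 2.15 in LRP1 eKO replicates 1, 3 and 4, and 0.924 in LRP1 eKO replicate 2, and of the 4 that passed the filter Oit3 rose (log2 fold change 1.11). The mean of 10 general endothelial markers was 1.94 to 2.14 in WT libraries. In LRP1 eKO replicates 1 to 4 it was 2.59, 2.13, 2.51 and 2.29. Of the 8 general endothelial markers that passed the filter, 3 rose, namely Eng (0.91), Cdh5 (0.68) and Esam (0.24). The part of endothelial markers in the members' values was not tested.

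Markers of T and natural killer cells, which carry receptors for several members, were near 0, with list means of 0.0130 to 0.0334 over 11 genes in all 8 libraries, and 4 of the 11 were listed at 0 throughout. Hepatocyte markers were lower in LRP1 eKO (list means 2.54 to 2.75) than in WT libraries (3.52 to 3.79), as were muscle markers (1.497 to 1.598 and 2.56 to 3.05), and their part in the members' values was not tested.

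**Figure D5:**
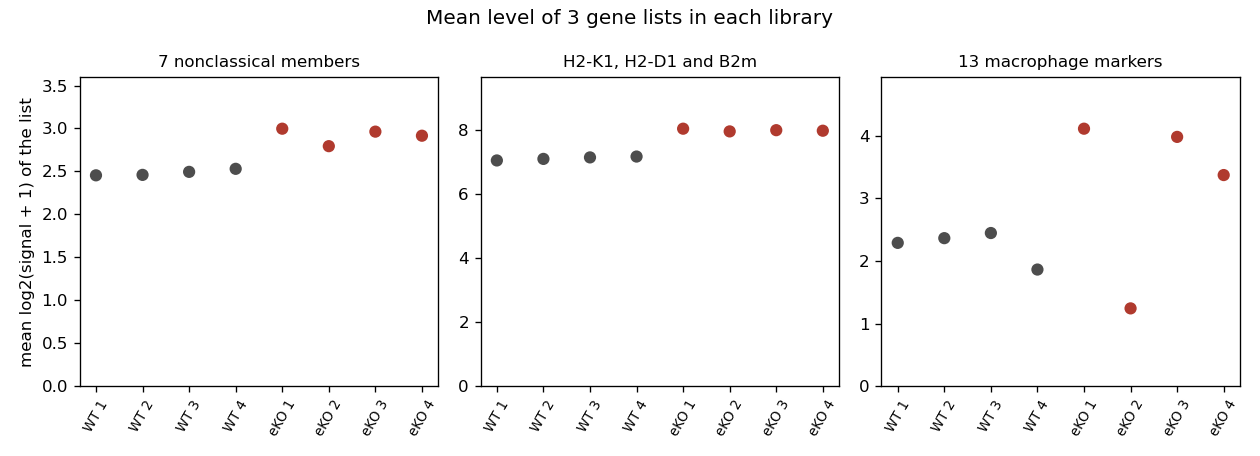
Mean log2(signal + 1) of 3 gene lists (vertical axes) in each library, with WT in grey and LRP1 eKO in red. LRP1 eKO replicate 2 is above all WT libraries for the nonclassical (2.79) and classical (7.95) lists and below them for the macrophage list (1.24).

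Genes outside the set whose centred profiles over the 8 libraries were most like those of members are given as a description. By root mean square difference on the log2 scale, the nearest to H2-T22 was Cyb5r1 (0.0236), to H2-Q4 Rab32 (0.0723), to H2-Q6 P2ry2 (0.0438), to H2-Q7 Fam46a (0.0464), to H2-T23 Timp1 (0.0597) and to H2-M3 Eif4e3 (0.0324). The interferon-induced Ifi35 was among the 3 nearest to H2-Q7 (0.0576) and Ifi204 among the 3 nearest to H2-M3 (0.0727).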

How the data were processed

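mRNA-seq libraries of liver cells comprised 4 from WT and 4 from LRP1 eKO mice, and groups were taken from the sample labels. The authors deposited quantile-normalized signal for 22520 coding genes. The study's methods name STAR and featureCounts and the submitters' processing notes name TopHat2 and Cufflinks, with mm10, but neither describes this table, and strand use and the treatment of reads with several matches are not stated. Totals of 484445 to 485947 per library were set by the normalization, which removes global shifts. Nothing says how many animals each library pooled, so that p-values measure the spread between libraries.

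Log2(signal + 1) was fitted with limma 3.58.1 (R 4.3.3) by genotype with a variance trend and Benjamini-Hochberg adjustment over all genes with 4 or more libraries at a signal of 1 or above, and genes below this were read from a fit without the filter. A call needed an adjusted p below 0.05 and 2-fold. Single differences were tested by exact permutation (scipy 1.17.1). The calculation was tested on simulated data, with larger changes than those of the members and at the 2-fold threshold. That test does not bear on changes of the members' size. Gene identifiers were matched to GENCODE M21, where 21740 were found. The members and gene lists were chosen with earlier results of these data known. All 7 members are named, and genes of other lists were named where they passed a threshold, with the 3 of smallest adjusted p where over 4 did. Genes named beyond this rule, such as H2-DMb1, Irf9, Rfxap, Rfxank and the cell type markers, were chosen after their values were seen. Some genes that the rule would name are not reported here.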

Additional observations from a re-analysis of the deposited data

Results flagged for a closer look

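In 60 groups of 4 libraries (the members, H2-K1, H2-D1, B2m and the list means in each genotype), 2 had a library far from the other 3, where chance gives about 3. No member was among them. For the receptors of class I molecules, the list mean of WT replicate 4 (0.121) was below the other WT libraries (0.177 to 0.188), with a gap of 0.845 of the range. For erythroid markers, the list mean of WT replicate 2 (1.63) was above the others (0.702 to 0.740), with a gap of 0.958 of the range.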

How the results depend on the processing

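All 7 members kept a positive log2 fold change under every alternative run, and 5 to 7 were at an adjusted p below 0.05 with 1 library left out. Of the 7, 2 were called at 2-fold with a pseudocount of 0.1 (H2-Q6 and H2-Q7) and 6 with no minimum fold. H2-T24 was no longer at an adjusted p below 0.05 with a pseudocount of 0.1 (log2 fold change 0.77), without a trend (0.37), with the macrophage covariate (0.25) and with a replicate block (0.37). Its log2 fold change ran from 0.27 to 0.44 with 1 library left out. H2-M3 passed with array weights (0.26) and without both WT replicate 4 and LRP1 eKO replicate 2 (0.32), and ran from 0.16 to 0.28 with 1 library left out. The members that passed the test with a smaller change than the classical heavy chains numbered 4 with a pseudocount of 0.1. Under it H2-Q6 (0.49) and H2-Q7 (0.21) reversed, and H2-T24 had a smaller change that did not pass. Pairs at an unadjusted p below 0.05 numbered 8 with a pseudocount of 0.1 and 8 with 5, and 0 passed adjustment. The neighbours that rose numbered 7 to 13 with 1 library left out. With windows of 100 bases the share found in any other gene was 13.9% for H2-Q4, 13.04% for H2-Q6, 17.2% for H2-Q7, 12.4% for H2-T22, 7.28% for H2-T23 and 0% for H2-T24 and H2-M3.

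Libraries of the same number did not consistently deviate together (correlations -0.086, -0.130, 0.178 and 0.038). These values do not show a pairing by number, but they cannot exclude it. The replicate block left 5 members at a limma adjusted p below 0.05. Depth is unknown, which limits H2-Q6, H2-Q7 and H2-T24 most. A sum of H2-T22 with H2-T10 and H2-T9 was not run, since no rows with those 2 symbols were used here. Leaving Gm11127, Gm7030 and Gm8909 out of the neighbours was chosen after seeing the data.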
